A study of Homo sapiens with 6 samples.

Results

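Collagens and matricellular proteins were examined as 1 set of 72 protein-coding genes among the 58735 genes of the expression table. The set was defined by gene name: the 44 collagen chains, the fibrillins, the fibulins, the lysyl oxidases, the thrombospondins, the tenascins, the nidogens, and FN1, HSPG2, AGRN, SPARC, SPOCK1 and POSTN. The rule used no measured value, but it was written with earlier results of these data known. RNA sequencing was performed in NCI-N87, a human gastric cancer cell line of epithelial origin, with 3 libraries of cells labelled shNC, a control lentivirus, and 3 of cells labelled shScamp1, carrying an shRNA against SCAMP1. The study's methods describe the sequenced control as an empty vector named shCtrl and the depleted cells as shS1#1; these names were taken to mean the same groups. SCAMP1 is a membrane protein of the endocytic recycling pathway, and the comparison addressed which genes change when it is depleted. Both groups were transduced with lentivirus, selected with puromycin and kept as stable populations, and the labels give no difference between them but the shRNA. The model was limited to 1 cell line and 1 shRNA, so effects of that shRNA on other transcripts cannot be told apart from those of SCAMP1 depletion. The labels call the libraries biological replicates and do not say whether they came from separate cultures. The p-values therefore measure only the spread between these samples.

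SCAMP1 itself was measured at 12.6, 12.1 and 11.5 FPKM in the shNC libraries and at 1.70, 1.37 and 1.99 FPKM in the shScamp1 libraries (fragments per kilobase of gene length, scaled by the authors between libraries). The log2 fold change was -2.78 (SE 0.14, adjusted p = 0.000248, limma with Benjamini-Hochberg adjustment), so the targeted transcript was lower in each library labelled as depleted. Library totals ranged from 15064905 to 15988700 reads in shNC and from 14311769 to 14667628 in shScamp1. The second shScamp1 library stood apart from the other 2 of its group: its mitochondrial share of reads was 9.21% against 6.09% to 6.78% elsewhere, and the chi-square per degree of freedom between replicates was 34.6 and 44.1 for its pairs against 1.97 to 3.10 for all other pairs. Members' results that rest on it are given with and without that library. The 8 epithelial marker genes were all expressed, with a summed level of 4411 to 4628 FPKM in shNC and 8001 to 8701 FPKM in shScamp1. KRT8, KRT18 and KRT19 made up most of that sum. KRT8, KRT18, KRT19, CLDN4 and CDH1 of that list were higher in shScamp1, with adjusted p-values from 0.00123 to 0.0311 (limma). These are 62.5% of the list, against 14.0% of all genes. EPCAM (log2 fold change -0.05, adjusted p = 0.670), CLDN7 (-0.16, adjusted p = 0.563) and ELF3 (0.35, adjusted p = 0.174) were not called. Without the second shScamp1 library ELF3 passed (0.52, adjusted p = 0.00035, limma), while EPCAM and CLDN7 did not (adjusted p = 0.798 and 0.721). Of 10 fibroblast markers, 5 (DCN, LUM, PDGFRA, DPT and COL1A2) had 0 reads in every library, and the list summed to at most 0.0874 FPKM in shNC and 0.266 FPKM in shScamp1. The 5 endothelial markers summed to between 0.201 and 0.316 FPKM in shNC and between 0.566 and 0.719 FPKM in shScamp1. VWF and TEK made up most of that sum, while KDR and PECAM1 had at most 1 read in any library.

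Collagens are built of chains that wind around each other in a triple helix. Within the helix glycine returns at a fixed spacing, because only this smallest residue fits at the centre. Fibrillar collagens form the cables of connective tissue, network collagens form the sheet of basement membranes, and fibril-associated and transmembrane collagens link these to other matrix or to cells. Matricellular proteins such as thrombospondins and tenascins sit in the matrix and act on cell behaviour more than on its mechanics. Perlecan and agrin, the products of HSPG2 and AGRN, are heparan sulfate proteoglycans of basement membranes, and lysyl oxidases cross-link collagen and elastin. In the stomach wall fibroblasts make most fibrillar collagen, and the epithelium sits on a basement membrane to which both cell layers contribute.

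The glycine spacing was visible in the coding sequence of all 44 collagen members, whereas the other 28 members lacked it. A GGN codon, which encodes glycine, recurred at a spacing of 3 codons in an uninterrupted run of at least 20 repeats in 44 of 44 collagens. In the other members the longest run was 4 repeats. Over 19502 coding genes, 68 (0.349%) held such a run. Among the 8 collagens that entered the FPKM fit, the longest run varied from 30 repeats in COL18A1 to 339. The stretches of 90 bases shown here come from the GENCODE 29 transcripts, from the start of the longest run of COL9A3 and COL27A1, the collagen genes that fell, and of COL17A1 and COL18A1, collagens of the hemidesmosome and basement membrane that did not pass in the FPKM fit. Capitals mark the GG of each glycine codon. The COL9A3 stretch is bases 541 to 630 of the coding sequence, in a run of 113 repeats that takes up 49.6% of it. That of COL27A1 is bases 2062 to 2151 in a run of 217, that of COL17A1 bases 1921 to 2010 in a run of 56, and that of COL18A1 bases 2794 to 2883 in a run of 30.
COL9A3: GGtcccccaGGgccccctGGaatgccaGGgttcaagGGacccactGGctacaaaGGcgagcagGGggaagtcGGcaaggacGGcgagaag
COL27A1: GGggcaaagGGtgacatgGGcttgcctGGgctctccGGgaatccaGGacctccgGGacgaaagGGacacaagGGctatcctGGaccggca
COL17A1: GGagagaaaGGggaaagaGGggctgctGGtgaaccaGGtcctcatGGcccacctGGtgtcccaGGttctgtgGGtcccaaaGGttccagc
COL18A1: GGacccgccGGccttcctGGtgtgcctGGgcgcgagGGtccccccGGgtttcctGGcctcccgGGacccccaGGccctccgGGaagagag

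Most members were barely transcribed in NCI-N87 cells. Only 17 of the 72 reached a mean of 0.5 FPKM over the 6 libraries and entered the test, 8 collagens and 9 others. The other 55 stayed below it, and 29 members had 10 reads or fewer in every library. AGRN and LOXL4 exceeded a mean of 10 FPKM, HSPG2 and FN1 lay between 5 and 10 FPKM, and 14 members in all exceeded 1 FPKM. The shape of this ranking was therefore steep: AGRN alone made up 51.4% to 53.2% of the summed FPKM of all members in shNC and 54.6% to 54.8% in shScamp1. With LOXL4, HSPG2 and FN1 it made up 79.7% ± 0.731 in shNC and 87.4% ± 0.797 in shScamp1 (SD, n = 3 each). The products of these 4 genes are basement membrane proteoglycans, a cross-linking enzyme and fibronectin, and no collagen is among them.

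**Figure D1:**
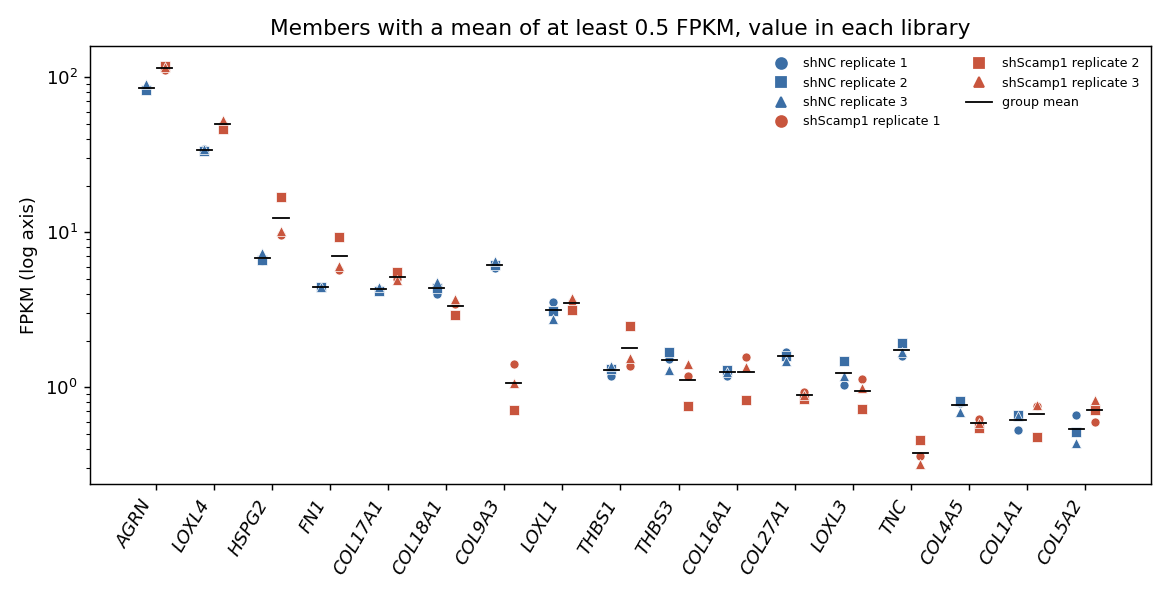
FPKM (log axis) of the 17 members with a mean of at least 0.5 FPKM, ordered by their mean, with 1 point per library (blue shNC, red shScamp1, marker shape for the replicate number) and a black line at each group mean. AGRN lies near 100 FPKM and most collagens near 1 FPKM, and the red points of COL9A3 and TNC lie far below the blue ones.

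Of the 17 members tested, 5 passed an adjusted p of 0.05 (29.4%), against 14.0% of all 15556 genes tested. AGRN and LOXL4 were higher in shScamp1, and COL9A3, TNC and COL27A1 were lower. Over all genes 8.82% were called higher and 5.17% lower. COL9A3 and TNC also had an absolute log2 fold change above 1, which is 11.8% of the members tested against 3.16% of all genes. The members' values did not overlap between the groups in 10 of 17 (58.8%), against 41.4% of all genes. The median log2 fold change of the members was 0.08, beside -0.02 over all genes. The members called thus lay in both directions, with the 2 most abundant members, AGRN and LOXL4, among those higher. Without the second shScamp1 library 7 members passed, 4 higher and 3 lower, against 28.3% of 15458 genes (14.9% higher and 13.4% lower). HSPG2 and FN1 were the genes added, and COL9A3 and TNC were again those with an absolute log2 fold change above 1, against 3.49% of these genes.

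**Figure D2:**
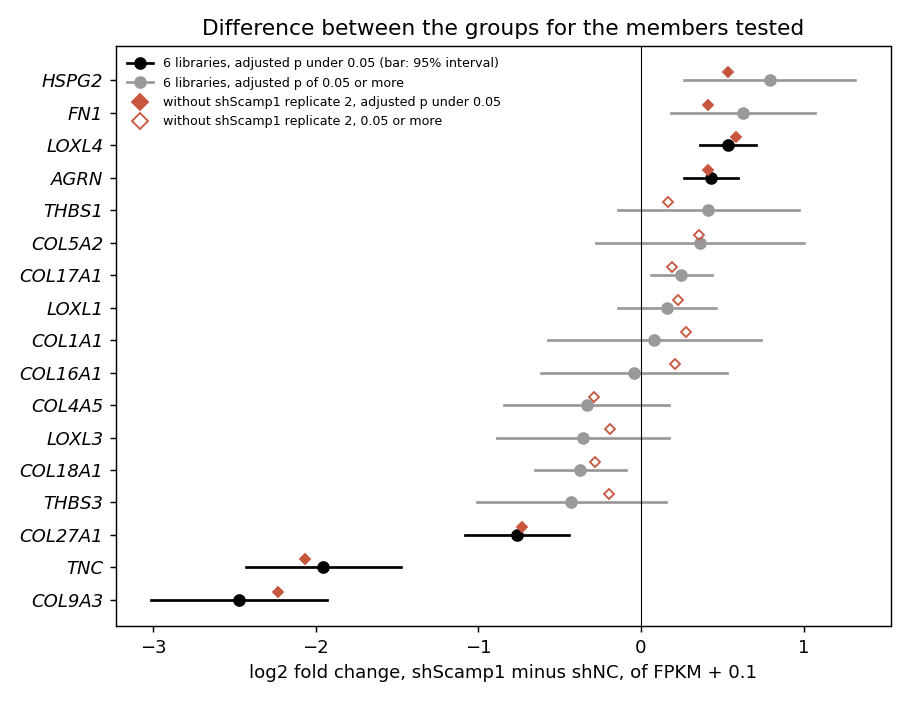
Log2 fold change (shScamp1 minus shNC, of FPKM + 0.1) of the 17 members tested, with the 95% interval of the limma fit; black marks an adjusted p under 0.05 and grey the rest, and red diamonds give the value without the second shScamp1 library (filled where the adjusted p was under 0.05). COL9A3 at -2.47 and TNC at -1.95 lie apart from all other members, whose values run from -0.76 to 0.79.

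The collagen with the largest change was COL9A3 (chromosome 20, 62816244 to 62841159, hg38), a chain of the fibril-associated type IX collagen best known from cartilage. Its level was 5.85, 6.14 and 6.49 FPKM in shNC and 1.41, 0.709 and 1.07 FPKM in shScamp1. In shNC it was the most abundant collagen of the cells, and in shScamp1 COL17A1, COL18A1 and COL16A1 lay above its mean. The log2 fold change was -2.47 (SE 0.22, adjusted p = 0.00161, limma), and the mean fell from 6.16 ± 0.318 to 1.07 ± 0.353 FPKM (SD, n = 3 each). The lowest value came from the second shScamp1 library, and without it the log2 fold change was -2.23 (adjusted p = 0.000256, limma). COL9A2, which encodes a partner chain, had 27, 21 and 16 reads in shNC and 16, 18 and 26 reads in shScamp1, and COL9A1 at most 2 reads in any library. Per length, COL9A3 stood 14.5 to 26.4 times above COL9A2 in shNC libraries and 2.27 to 5.44 times above it in shScamp1 libraries. COL9A3 shares 45 exonic bases (0.930% of its exons) with TCFL5 on the other strand, and the sources used here do not say whether reads were counted by strand.

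The other collagen called was COL27A1 (chromosome 9, 114155560 to 114312511), which encodes a minor fibrillar collagen. It measured 1.69, 1.60 and 1.48 FPKM in shNC and 0.940, 0.846 and 0.894 FPKM in shScamp1. The groups were well separated at these low levels, from 162 to 375 reads per library, with a log2 fold change of -0.76 (SE 0.13, adjusted p = 0.0147, limma). The call did not hold when any of the 3 shNC libraries or shScamp1 replicate 3 was left out, with adjusted p-values between 0.0556 and 0.0828 (limma), while the log2 fold change stayed between -0.81 and -0.72 in the fits without a library. The other fibrillar collagens tested did not pass. COL1A1, a chain of the major collagen of connective tissue, had a log2 fold change of 0.08 (95% interval -0.57 to 0.74, adjusted p = 0.865, limma). COL5A2, a regulator of fibril diameter, had one of 0.36 (-0.28 to 1.00, adjusted p = 0.398). These intervals span changes in both directions, and both genes were read at no more than 111 reads in any library.

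COL1A1 was present without its usual partner. It measured 0.533, 0.666 and 0.653 FPKM in shNC and 0.760, 0.476 and 0.773 FPKM in shScamp1, from 64 to 111 reads. COL1A2, the other chain of type I collagen, had 0 reads in all 6 libraries. With 3 reads taken as the limit that a count of 0 allows in a library, COL1A1 was at least 24.2-fold to 42.0-fold higher per length than COL1A2, depending on the library. COL3A1, the fibrillar collagen that fibroblasts make with type I, had at most 1 read in any library. Of the 11 fibrillar collagens, 3 were tested, and the untested 8 had means from 0 to 0.253 FPKM.

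Collagens outside the fibrillar class were measured in both directions. COL17A1, a transmembrane collagen of the hemidesmosome, measured 4.33, 4.21 and 4.42 FPKM in shNC and 5.00, 5.57 and 4.91 FPKM in shScamp1. COL18A1, a basement membrane multiplexin and the source of endostatin, measured 3.98, 4.38 and 4.78 FPKM in shNC and 3.43, 2.95 and 3.72 FPKM in shScamp1. The groups did not overlap in either gene, in opposite directions, and neither passed in the FPKM fit of the 6 libraries. The log2 fold change was 0.25 for COL17A1 (SE 0.08, adjusted p = 0.0857, limma) and -0.37 for COL18A1 (SE 0.12, adjusted p = 0.0847). On reads recovered from the FPKM, among genes with a mean of at least 10 reads, COL18A1 passed narrowly (-0.38, adjusted p = 0.0497, voom with limma) and COL17A1 did not (adjusted p = 0.0727). Without the second shScamp1 library, an extreme of its group in both genes, both passed that fit. The log2 fold change was then -0.29 for COL18A1 (adjusted p = 0.00759) and 0.20 for COL17A1 (adjusted p = 0.0335). COL18A1 shares 1401 exonic bases (16.4%) with SLC19A1 on the other strand, which was itself expressed at a mean of 3.81 FPKM. COL4A5, a basement membrane chain, had non-overlapping groups as well, from 0.693 to 0.819 FPKM in shNC and from 0.548 to 0.629 FPKM in shScamp1, and a log2 fold change of -0.33 (adjusted p = 0.330). COL16A1, a fibril-associated collagen, had nearly equal means of 1.25 ± 0.0600 and 1.25 ± 0.383 FPKM, and its log2 fold change of -0.04 became 0.21 without the second shScamp1 library (adjusted p = 0.923 and 0.312, limma).

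Summed over all 44 genes, collagen transcripts went from 22.4 ± 0.462 FPKM in shNC to 16.8 ± 1.01 FPKM in shScamp1 (SD, n = 3 each). The libraries measured 22.0, 22.3 and 22.9 FPKM against 17.6, 15.7 and 17.2 FPKM and did not overlap. Without COL9A3 the sums were 16.2 ± 0.152 and 15.8 ± 0.692 FPKM, and the groups overlapped. The lower sum was thus carried by COL9A3. The 28 other members went from 142 ± 4.76 to 194 ± 8.01 FPKM. Without AGRN and LOXL4 they summed to 21.7, 22.6 and 22.2 FPKM in shNC and to 24.8, 36.1 and 26.3 FPKM in shScamp1, the highest value being that of the second shScamp1 library. Collagens made up 13.6% ± 0.213 of the members' summed FPKM in shNC and 7.98% ± 0.715 in shScamp1. With bulk RNA, fewer cells expressing a gene and less RNA per cell cannot be told apart.

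**Figure D3:**
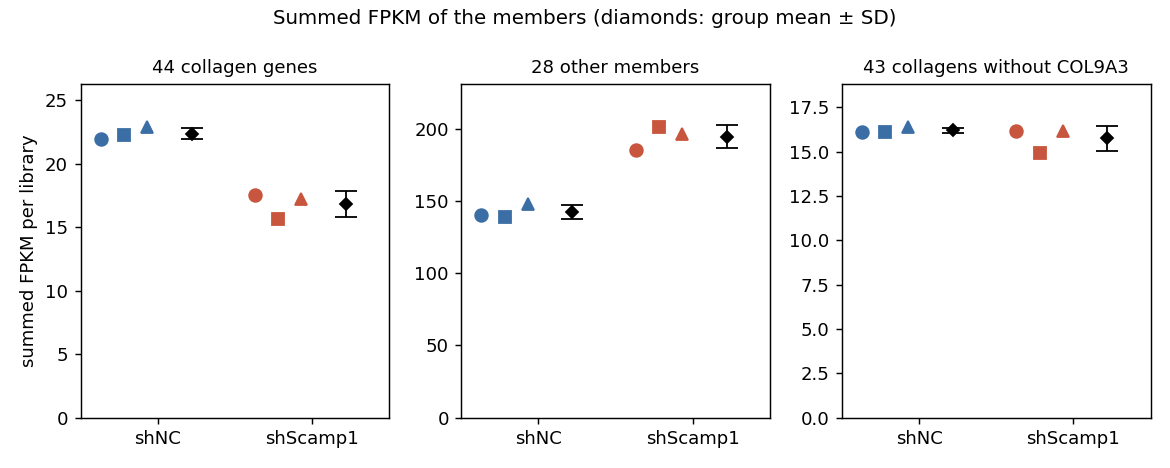
Summed FPKM per library of the 44 collagens, of the 28 other members and of the 43 collagens without COL9A3, on axes that start at 0, with 1 coloured point per library (blue shNC, red shScamp1; circle, square and triangle for replicates 1, 2 and 3) and a black diamond with bars for the group mean ± SD. The collagen sums separate the groups (22.4 against 16.8 FPKM), and without COL9A3 the points of the groups overlap.

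Among the adhesive proteins and proteoglycans, AGRN (chromosome 1, 1020123 to 1056118) was the most abundant member in every library. It measured 83.8, 82.7 and 90.6 FPKM in shNC and 110.8, 118.6 and 117.1 FPKM in shScamp1, from 14295 to 18430 reads. All shScamp1 libraries lay above all shNC libraries, with a mean ratio of 1.35. The log2 fold change was 0.43 (SE 0.07, adjusted p = 0.0121, limma). The direction held in every fit without a library, at 0.41 to 0.47, but the call was lost without the first or the second shNC library or without the third shScamp1 library (adjusted p = 0.0729, 0.0753 and 0.0598). Without the second shScamp1 library the log2 fold change was 0.41 (adjusted p = 0.00389).

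HSPG2 (chromosome 1, 21822245 to 21937297), the gene of perlecan, measured 6.50, 6.64 and 7.35 FPKM in shNC and 9.58, 17.0 and 10.2 FPKM in shScamp1. FN1 (chromosome 2, 215360440 to 215436172), the gene of fibronectin, measured 4.34, 4.45 and 4.45 FPKM in shNC and 5.72, 9.29 and 6.11 FPKM in shScamp1. In both genes the shScamp1 libraries lay above the shNC libraries and the second of them lay far above the other 2. Neither passed in the FPKM fit of all genes. The log2 fold change was 0.79 for HSPG2 (SE 0.22, adjusted p = 0.0618, limma) and 0.63 for FN1 (SE 0.18, adjusted p = 0.0710). Without the second library they were smaller and passed, at 0.53 for HSPG2 (adjusted p = 0.00458) and 0.41 for FN1 (adjusted p = 0.00529). With all 6 libraries both also passed with voom on recovered reads (adjusted p = 0.0263 for HSPG2 and 0.0332 for FN1) and when the fit was limited to protein-coding genes (adjusted p = 0.0337 and 0.0409). Each gene was called in 5 of 17 alternatives in all. The library values of HSPG2, FN1, COL1A1, COL17A1, COL18A1 and THBS1, which were not called, are given because these genes were singled out after their values were seen. HSPG2 shares 2121 exonic bases (11.7%) with LDLRAD2 on the other strand, which had a mean of 0.0434 FPKM. The nidogens, which bridge laminin and type IV collagen in the basement membrane, were nearly silent: NID1 had at most 2 reads and NID2 at most 9 reads in any library.

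Among the lysyl oxidases, LOXL4 (chromosome 10, 98247690 to 98268250) was the second most abundant member and was higher in shScamp1. It measured 34.5, 33.3 and 34.7 FPKM in shNC and 49.8, 46.2 and 53.0 FPKM in shScamp1. The group means were 34.2 ± 0.739 and 49.7 ± 3.38 FPKM (SD, n = 3 each), and the log2 fold change was 0.53 (SE 0.07, adjusted p = 0.00649, limma). This call held in each of the 6 fits without a library, with log2 fold changes from 0.49 to 0.59. An antisense gene, AL139241.1, shares 152 exonic bases (4.16%) with LOXL4 and had a mean of 2.65 FPKM. LOXL1, which is needed for elastic fibres, had a log2 fold change of 0.16 (95% interval -0.14 to 0.46, adjusted p = 0.420, limma). LOXL3 had one of -0.36 (-0.89 to 0.17, adjusted p = 0.317). LOXL1, from 2.74 to 3.80 FPKM, and LOXL3, from 0.720 to 1.47 FPKM, overlapped between the groups. Both share exonic bases with a gene on the other strand, LOXL1 with LOXL1-AS1 (9.21%) and LOXL3 with HTRA2 (14.3%), so these values are uncertain. LOX, the founding enzyme of the family, had 29, 25 and 21 reads in shNC and 14, 11 and 16 reads in shScamp1. The groups of LOX did not overlap, but it did not pass on recovered reads (-0.69, adjusted p = 0.0949, voom with limma). LOXL2 had between 8 and 16 reads per library. LOXL4 thus stood for most lysyl oxidase transcript in both groups: the family summed to 39.0 ± 0.658 FPKM in shNC and 54.4 ± 3.80 FPKM in shScamp1.

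Among the matricellular glycoproteins, TNC (chromosome 9, 115019578 to 115118257) fell. TNC encodes tenascin C, a large glycoprotein of wound and tumour matrix. It measured 1.60, 1.93 and 1.70 FPKM in shNC and 0.362, 0.455 and 0.319 FPKM in shScamp1. From 45 to 310 reads lay behind these values, and the ratio of the means was 0.217. The log2 fold change was -1.95 (SE 0.20, adjusted p = 0.00227, limma) and -2.06 without the second shScamp1 library (adjusted p = 0.00120). Adding 1 FPKM in place of 0.1 FPKM before the logarithm gave -0.99, a smaller value because the gene is low. Of the other tenascins, TNR had at most 2 reads and TNN at most 4 reads in any library, and TNXB had 12 to 30 reads and is described with the low members.

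Of the 4 thrombospondins, THBS1 and THBS3 were tested on FPKM and did not pass. THBS1, an activator of latent TGF-beta and an inhibitor of vessel growth, measured 1.18, 1.30 and 1.37 FPKM in shNC and 1.37, 2.50 and 1.54 FPKM in shScamp1. The second shScamp1 library was again the highest. Its log2 fold change was 0.41 (95% interval -0.14 to 0.97, adjusted p = 0.275, limma) and 0.16 without that library. THBS3 had a log2 fold change of -0.43 (-1.01 to 0.15, adjusted p = 0.277, limma) and -0.20 without that library. THBS3 shares 22.2% of its exonic bases with AC234582.1 on the other strand, which had a mean of 0.140 FPKM. It shares a further 3.16% with MTX1, also on the other strand, which had a mean of 5.54 FPKM. THBS4, with 9 to 13 reads per library, did not pass on recovered reads (adjusted p = 0.615, voom with limma), and THBS2 was too low to enter a test. SPOCK1, a secreted proteoglycan, stayed just under the filter with a mean of 0.484 FPKM, and SPARC and POSTN, typical products of activated fibroblasts, had at most 3 reads and 1 read in any library.

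The second shScamp1 library lay at an extreme of its group for most members. Of the 17 members tested it was the highest of the 3 in 6, the lowest in 10 and the middle one in 1. This count was not made over all genes, and the library also stood apart in the chi-square taken over all well-read genes. The count is therefore not read as particular to the members. The median difference of the members from their shNC means was 0.15, -0.31 and 0.18 on the log2 scale in the first, the second and the third shScamp1 library. FN1, HSPG2 and THBS1 were highest in that library, and COL9A3, COL16A1 and THBS3 were lowest. What its higher mitochondrial share contributes was not tested.

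Of the 55 members under the filter, 20 had a mean of at least 10 reads per library and could be examined on reads recovered from the FPKM. In that fit (voom with limma, added after the data were seen) 6 of the 20 passed, 3 higher and 3 lower. In all 14 of 37 members passed, 7 in each direction, against 19.7% of 15570 genes (11.5% higher and 8.24% lower). Of the 37 members, 7 passed with an absolute log2 fold change above 1, against 4.68% of the 15570 genes. Without the second shScamp1 library 17 of 37 members passed that fit, against 38.6% of the genes, and all of the 14 were among them. The genes added were COL12A1 (log2 fold change -1.62, adjusted p = 0.00464), FBN2 (0.90, adjusted p = 0.0313) and COL17A1 (0.20, adjusted p = 0.0335, voom with limma). COL12A1 had 22, 19 and 18 reads in shNC and 5, 22 and 6 reads in shScamp1. With all libraries its log2 fold change was -0.97 (adjusted p = 0.196). The 6 genes under the filter that passed with all libraries were chosen after their values were seen, and all rest on few reads. The basement membrane collagen COL4A1 was at 37 reads in each shNC library and at 17, 12 and 20 reads in the shScamp1 libraries, a log2 fold change of -1.02 (SE 0.23, adjusted p = 0.0186). FBN1, which encodes the main microfibril protein, had 41, 53 and 45 reads in shNC and 17, 23 and 19 reads in shScamp1 (log2 fold change -1.06, adjusted p = 0.0130). FBN3, its relative, had 67, 75 and 70 against 40, 29 and 34 reads (-0.88, adjusted p = 0.00963). All 3 thus had about equal reads within shNC and fewer in each shScamp1 library.

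The 3 low members that were higher were COL6A6, COL13A1 and TNXB. COL6A6, a chain of beaded filaments, had 11, 9 and 9 reads in shNC and 27, 67 and 28 reads in shScamp1, with the second library again far above the others (log2 fold change 2.04, SE 0.48, adjusted p = 0.0214, voom with limma). Without that library it was 1.60 (SE 0.34, adjusted p = 0.000509). COL13A1, a transmembrane collagen, had 6, 7 and 8 reads against 12, 12 and 21 reads (1.17, adjusted p = 0.0465). TNXB had 14, 16 and 12 reads against 23, 25 and 30 reads (1.03, adjusted p = 0.0211), and its value is uncertain because the gene has a near-identical partial copy, TNXA, and shares 71 exonic bases with ATF6B on the same strand. The other 14 of these 20 genes did not pass with all libraries, among them COL7A1, the anchoring fibril collagen. COL7A1 had 84 to 100 reads in shNC and 38 to 73 reads in shScamp1 (log2 fold change -0.48, adjusted p = 0.163, voom with limma).

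**Figure D4:**
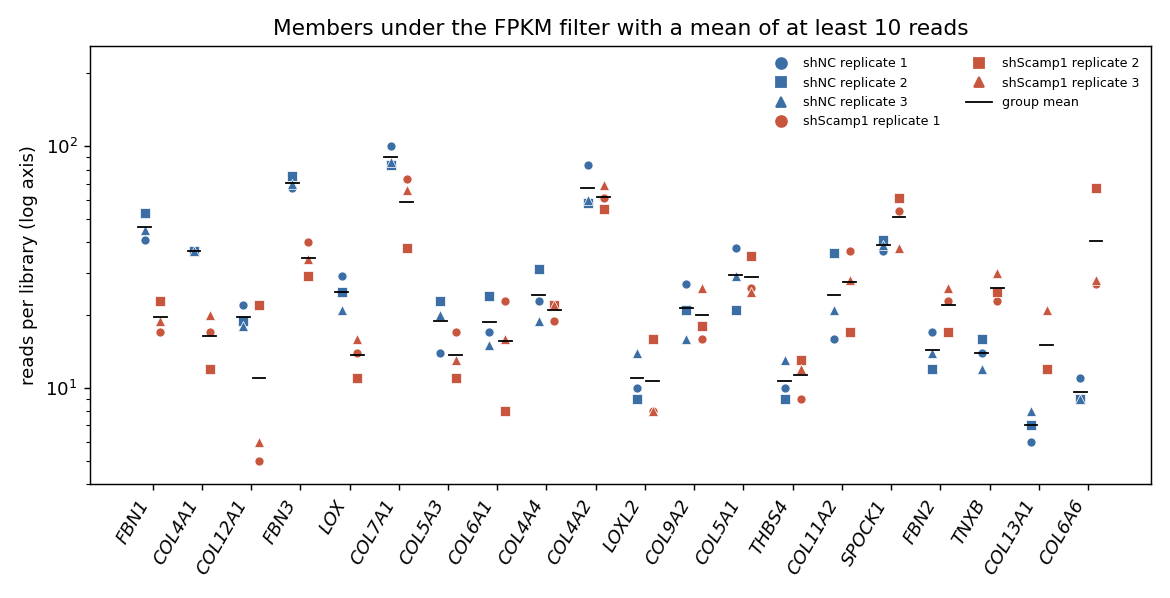
Reads per library (log axis) of the 20 members under the FPKM filter with a mean of at least 10 reads, with 1 point per library (blue shNC, red shScamp1, marker shape for the replicate number) and a black line at each group mean. FBN1, FBN3 and COL4A1 have lower red points, COL6A6 and TNXB higher ones, and most other genes overlap between the groups.

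COL4A1 and COL4A2 encode the partner chains of the main basement membrane collagen and lie head to head on chromosome 13. Their annotated starts are 1421 bases apart, and the genes overlap over that stretch. COL4A1 and COL4A2 differed in these libraries. COL4A2 had 84, 58 and 60 reads in shNC and 61, 55 and 69 reads in shScamp1, with a log2 fold change of 0.05 (SE 0.19, adjusted p = 0.870, voom with limma). Per length, the ratio of COL4A2 to COL4A1 was 1.2 to 1.73 in shNC and 2.64 to 3.50 in shScamp1. The ratios did not overlap, but the difference between these 2 genes was not tested beyond that. The other head-to-head pairs of type IV collagen genes do not overlap. They start 112 bases apart (COL4A3 and COL4A4, on chromosome 2) and 347 bases apart (COL4A5 and COL4A6, on chromosome X). COL4A5 exceeded COL4A6 per length by 14.6 to 42.6 times, and COL4A6 had 2 to 8 reads per library.

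The remaining 35 members had a mean under 10 reads. COL1A2 and COL19A1 had 0 reads in all 6 libraries. In 6 members only 1 of the groups had any read. COL15A1 and COL21A1 had 2 reads each in the first shScamp1 library, POSTN 1 read and TNR 2 reads in the third, COL23A1 had 4 reads in the second and 1 in the third, and COL25A1 had 8 reads in the first and 1 in the third. In COL15A1, COL21A1, POSTN and TNR these lie within the 3 reads that a count of 0 allows, so no difference was detectable at this depth. The highest mean FPKM within the 35 was that of THBS2, a relative of THBS1, with 7, 17 and 10 reads in shNC and 5, 4 and 5 reads in shScamp1.

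The start regions of the tested members were read where the set of RefSeq promoters used here held one. Of the 17 tested members 13 had an entry, and 250 bases before the RefSeq start were searched on both strands. AGRN and COL9A3, both called, had no entry and were not read, nor were COL1A1 and COL5A2. For LOXL1, THBS3, COL16A1 and LOXL3 the 250 bases lay wholly within the annotated gene. The GC box (GGGCGG) occurred in 9 of the 13 and in 42.6% of all 35116 promoters, the CCAAT box (CCAAT) in 5 and in 32.0%, the TATA box (TATAAA) in 1 and in 10.7%, and the AP-1 site (TGANTCA) in none and in 6.57%. LOXL4 held 6 GC boxes, COL27A1 2 and TNC 1. The stretches are printed for these 3 because they are called members that had an entry, as the part that lies outside the annotated gene, 5′ to 3′ on the gene's strand, with GC boxes of either strand in capitals (RefSeq, GRCh38.p14). For LOXL4 it is chr10:98268251-98268444 on the minus strand with 5 of its GC boxes, for COL27A1 chr9:114155287-114155536 on the plus strand and for TNC chr9:115118258-115118407 on the minus strand. A match describes the letters only.
LOXL4: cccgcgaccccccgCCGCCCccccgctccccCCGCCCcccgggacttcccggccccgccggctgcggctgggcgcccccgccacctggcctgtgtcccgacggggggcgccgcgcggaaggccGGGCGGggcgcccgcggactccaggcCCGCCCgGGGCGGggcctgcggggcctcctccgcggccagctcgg
COL27A1: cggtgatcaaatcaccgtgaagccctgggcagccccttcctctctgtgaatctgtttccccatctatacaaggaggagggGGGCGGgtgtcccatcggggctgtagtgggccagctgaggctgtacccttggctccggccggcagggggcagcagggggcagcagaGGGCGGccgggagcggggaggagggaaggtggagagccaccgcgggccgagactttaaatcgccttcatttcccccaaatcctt
TNC: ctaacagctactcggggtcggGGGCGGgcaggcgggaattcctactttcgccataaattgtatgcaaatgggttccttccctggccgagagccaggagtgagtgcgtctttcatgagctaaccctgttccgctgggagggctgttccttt

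Collagen chains need a dedicated set of enzymes and chaperones, and 26 such genes were followed. Of these 18 were tested, 1 was higher and 4 were lower (27.8%, against 14.0% of all genes), with a median log2 fold change of -0.12. CRTAP, a subunit of the collagen prolyl 3-hydroxylation complex, measured 6.89, 6.40 and 6.30 FPKM in shNC and 4.44, 4.76 and 4.28 FPKM in shScamp1 (log2 fold change -0.53, adjusted p = 0.00813, limma). PLOD1, a lysyl hydroxylase, measured 9.46, 9.73 and 10.6 FPKM against 7.07, 8.24 and 7.26 FPKM (-0.40, adjusted p = 0.0323). PCOLCE2, an enhancer of procollagen cleavage, measured 4.6, 4.12 and 4.70 FPKM against 3.10, 2.68 and 3.50 FPKM (-0.52, adjusted p = 0.0335). P4HA1, a subunit of prolyl 4-hydroxylase, was lower too, and BMP1, a procollagen C-proteinase, was higher. CRTAP was the gene of these 5 whose call held in each of the 6 fits without a library. Leaving out any shNC library ended the calls of the other 4 genes, as did leaving out the third shScamp1 library for PLOD1, P4HA1 and BMP1 and the first for PLOD1, PCOLCE2 and BMP1. The largest adjusted p-values in these fits were 0.126 for PLOD1, 0.129 for PCOLCE2, 0.142 for P4HA1 and 0.129 for BMP1 (limma).

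On the side of the receptors, 14 of 22 genes were tested, 5 were higher and 1 was lower (42.9%, against 14.0% of all genes), with a median log2 fold change of 0.21. ITGB6, the beta subunit of an epithelial integrin that binds fibronectin and latent TGF-beta, measured 16.2, 16.5 and 15.6 FPKM in shNC and 29, 27.5 and 30.5 FPKM in shScamp1 (log2 fold change 0.84, adjusted p = 0.00107, limma). ITGA2, the alpha subunit of the epithelial collagen receptor, measured 6.53, 6.99 and 6.18 FPKM against 15.6, 24.9 and 18.6 FPKM (1.54, adjusted p = 0.00309). The second shScamp1 library was the highest, and without it the log2 fold change of ITGA2 was 1.36 (adjusted p = 0.000487). ITGB1, the beta subunit that pairs with it, measured 79.6, 79.1 and 75.8 FPKM against 103.2, 107.6 and 108.5 FPKM (0.44, adjusted p = 0.00722). In all 3 genes each shScamp1 library lay above each shNC library. SDC4, a syndecan that binds fibronectin, and ITGAV, the alpha subunit that pairs with ITGB6, were higher as well, and CD44, a receptor for hyaluronan, was lower. SDC4 was highest in the second shScamp1 library too, with a log2 fold change of 0.74 (adjusted p = 0.0123, limma) and 0.61 without it (adjusted p = 0.000186). ITGB6 and ITGA2 passed in each of the 6 fits without a library, and ITGB1 in 5, the exception being the second shNC library (adjusted p = 0.0505). Leaving out any shNC library ended the calls of SDC4, ITGAV and CD44, and so did leaving out the third shScamp1 library for ITGAV and CD44 and the first for CD44. The largest adjusted p-values there were 0.0634 for SDC4, 0.0983 for ITGAV and 0.0952 for CD44. Both lists were fixed with earlier results of these data known, so their counts describe these genes and are no independent evidence.

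**Figure D5:**
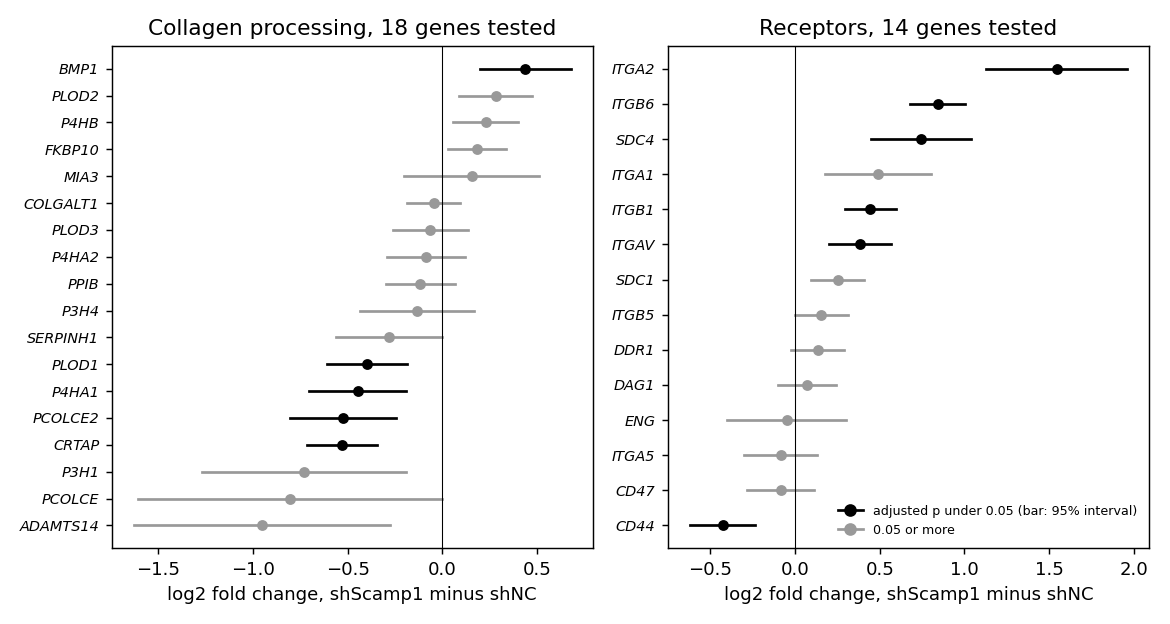
Log2 fold change (shScamp1 minus shNC, of FPKM + 0.1) with the 95% interval of the limma fit for the 18 collagen processing genes and the 14 receptor genes tested; black marks an adjusted p under 0.05 and grey the rest. Of the processing genes 4 black points lie below 0 and 1 above, and of the receptors 5 lie above and 1 below, ITGA2 farthest at 1.54.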

How the data were processed

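Total RNA of 3 shNC and 3 shScamp1 libraries was sequenced by a commercial provider. The authors deposited FPKM per gene and library, and the submitters' processing notes name HISAT2 2.0.5, featureCounts 1.5.0-p3, DESeq2 1.20.0 and hg38. Gene coordinates equalled GENCODE 29 for all 58735 genes. FPKM times gene length was a whole multiple of 1 step per library for all values above 0 (tolerance 0.05), which gave reads. The deposited FPKM were not scaled by library totals alone: 1 read was worth 0.959 to 0.975 times the value that depth alone gives in shNC and 1.00 to 1.05 times in shScamp1, and the origin of this factor is not given in the sources used here. Intervals and limits from reads cover counting error only.

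Genes averaging 0.5 FPKM or more were fitted by lmFit and a trended eBayes (limma 3.58.1, R 4.3.3). The values fitted were log2(FPKM + 0.1), a scale that understates changes of low genes. Benjamini-Hochberg adjustment covered all 15556 genes, and the threshold was an adjusted p of 0.05. The alternatives were other pseudocounts and filters, no trend, equal FPKM totals, voom on recovered reads, a replicate block and leaving out each library. The voom fit of genes with a mean of at least 10 reads, with and without shScamp1 replicate 2, was chosen after seeing the data. Members and lists were chosen with earlier results of these data known. Every tested member was named, with library values for those called or above 10 FPKM. Library values of HSPG2, FN1, COL1A1, COL17A1, COL18A1 and THBS1 were added after they were seen. Of the lists, called genes were named, with values for the 3 smallest p. The fitting was also run on simulated reads. These held no library that stood apart as shScamp1 replicate 2 does, so that run does not vouch for the calls given here.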

Additional observations from a re-analysis of the deposited data

How the results depend on the processing

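COL9A3, TNC, LOXL4, CRTAP, ITGA2, ITGB6 and SCAMP1 passed the threshold in all 17 alternatives, and AGRN in 13 and COL27A1 in 12. Of the single-gene values, 400 kept direction and side of the threshold, 55 lost and 13 gained a call, and 5 reversed, none of them called: without single libraries COL16A1 ranged from -0.22 to 0.21 (above 0 without shScamp1 replicate 2, and 0.22 there with voom) and COL1A1 from -0.022 to 0.28 (below 0 without shNC replicate 1 or shScamp1 replicate 1 or 3).

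Without single libraries, genes called higher ranged from 651 to 2296 and lower from 166 to 2078, members higher from 1 to 4 and lower from 2 to 3, processing genes higher from 0 to 3 and lower from 1 to 6, and receptors higher from 2 to 7 and lower from 0 to 1. Without a filter 514 genes were lower, with 0 processing genes higher and 1 lower. Protein-coding genes alone gave 4 members and 2 processing genes higher, with 1570 of 11529 genes higher in that fit. With voom 4 members were higher, with 1619 of 15556 genes higher. With voom at a mean of at least 10 reads 1783 genes were higher and 1283 lower. In that fit 7 members were higher, 7 lower and 7 past a log2 fold change of 1. HSPG2, FN1 and COL18A1 were gained among the members tested on FPKM, and 6 among members that entered. The same fit without shScamp1 replicate 2 gave 3104 genes higher and 2905 lower, 9 members higher, 8 lower and 7 past that fold, 4 processing genes higher and 7 lower, and 8 receptors higher and 2 lower. A pseudocount of 1 FPKM left 1 member past that fold. Without the trend 0 processing genes were higher and 2 lower, and with equal FPKM totals 0 were higher. The cause was not tested unless given.

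The replicate numbers did not pair the samples: deviations of same-numbered libraries correlated at -0.0351, 0.0325 and 0.0668. With a replicate block 704 genes were higher and 254 lower, 958 in all of which 939 were shared with the 2177 called without it. Under that block 1 member was higher, 0 processing genes higher and 1 lower, and 3 receptors higher and 0 lower. Depth limits the 35 members under 10 reads most. It also limits the 20 members examined only on recovered reads, and low tested genes such as COL1A1 and COL5A2.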
